A study of Macaca mulatta with 22 samples.

Results

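The genes described here act at different points in the life of a prostaglandin. They are HPGD, the dehydrogenase that inactivates prostaglandins, ABCC4, an efflux pump that carries them out of cells, PTGIS, the prostacyclin synthase, PTGES3, an HSP90 cochaperone also described as a prostaglandin E synthase, and PTGER1, a receptor for prostaglandin E. All probe sets whose annotation gave a single one of these symbols were taken, which found 11 probe sets for 5 of 5 genes, among 24956 single-symbol probe sets for 14132 genes in all. HPGD had 5 probe sets, PTGIS and ABCC4 had 2 each, and PTGES3 and PTGER1 had 1 each. They are numbered within a gene from the brightest, the probe set with the highest mean over all arrays, to the dimmest.

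RNA of 22 whole follicles from female rhesus macaques in controlled ovulation cycles was measured on Affymetrix rhesus arrays, 1 follicle per array. When serum estradiol reached 100 to 120 pg/ml, each female received Acyline, a GnRH antagonist, together with r-hFSH and r-hLH at 30 IU of each hormone. This treatment was shared by every group. The groups were 0 h (n = 6), taken without hCG, and 12 h (n = 4), 24 h (n = 4), 36 h ruptured (n = 4) and 36 h unruptured (n = 4), all taken after 1000 IU of recombinant human hCG. The titles call all samples ovulatory follicles, while the descriptions of 21 of the 22 speak of a developing corpus luteum. At 0 h the granulosa aromatase gene CYP19A1 averaged 11.34 ± 0.85 and the theca enzyme gene CYP17A1 12.05 ± 0.40 (log2 intensity, SD, n = 6), so markers of both steroidogenic layers were measured in these follicles. In whole follicles, fewer cells of a type and less RNA per cell cannot be told apart. Array medians lay between 26.1 and 26.7 intensity units and the 231 correlations between arrays between 0.870 and 0.918.

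Prostaglandins are made from arachidonic acid by cyclooxygenases and terminal synthases, act through receptors on nearby cells, and are cleared by uptake followed by oxidation in the cytosol. In the ovulating follicle the gonadotropin surge induces cyclooxygenase in granulosa cells, and prostaglandin E in the follicular fluid is needed for rupture of the follicle wall. HPGD catalyses the first oxidation step, so its level bears on how long a prostaglandin stays active. PTGS1, PTGS2 and PTGES were not analysed here.

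HPGD was higher 12 h after hCG than at 0 h, lower again at 24 h and in unruptured 36 h follicles, and, on 3 of its 5 probe sets, higher in ruptured than in unruptured follicles of the same hour. Over the 5 groups, all 5 HPGD probe sets passed the F test and none of the other 6 probe sets did, beside 20.1% of all probe sets (limma, Benjamini-Hochberg adjustment over 52766 probe sets, called at an adjusted p under 0.05). The adjusted p of the 5 HPGD probe sets ran from 0.00112 to 0.0178. For the other 6 probe sets it ran from 0.135 to 0.822.

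On its brightest probe set HPGD had log2 intensities of 8.45, 9.36, 9.08 and 10.29 in the 12 h follicles, against a lowest of 7.03, a median of 7.78 and a highest of 8.12 in the 0 h follicles. Every 12 h follicle lay above every 0 h follicle, and replicate 4 was the highest of the 22 arrays. In the 24 h follicles the values were 7.90, 7.07, 8.28 and 7.40, all below the 12 h follicles and close to the range of the 0 h follicles. The ruptured 36 h follicles had 9.03, 7.35, 8.74 and 8.85, against 7.61, 7.35, 7.49 and 6.77 in the unruptured 36 h follicles. Of the ruptured follicles, replicates 5, 7 and 8 lay above all unruptured follicles, and replicate 6 lay among them.

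**Figure D1:**
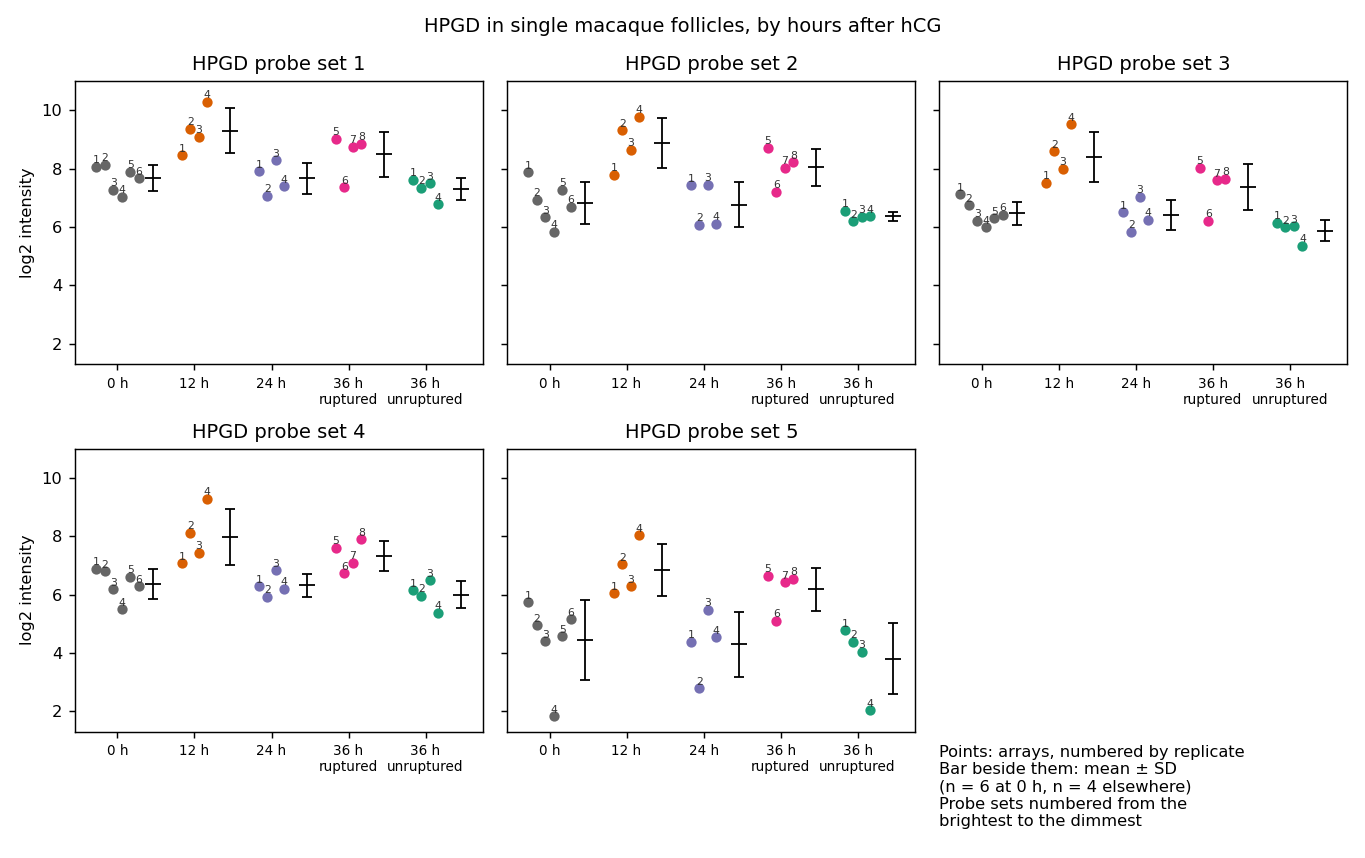
Log2 intensity of the 5 HPGD probe sets (vertical axis) in each array, by hours after hCG and, at 36 h, by rupture. Points are arrays with their replicate number, and bars give mean ± SD (n = 6 at 0 h, n = 4 elsewhere). The 12 h follicles are the highest group on every probe set and ruptured replicate 6 is the lowest ruptured follicle on every probe set.

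The change at 12 h against 0 h was 1.62 ± 0.37 on the log2 scale (SE, 95% confidence interval 0.85 to 2.39, adjusted p = 0.00814 in limma), a 3.08-fold difference. Over the 5 HPGD probe sets it ran from 1.60 to 2.41, all called, beside 4.28% of all probe sets called higher in that comparison. The largest change was on the dimmest probe set, which averaged 4.44 at 0 h. That is under the arrays' median log2 intensity of 4.73, where sizes of change are uncertain. On the second probe set the groups overlapped, since 12 h replicate 1 at 7.78 lay just under 0 h replicate 1 at 7.87. The dimmest HPGD probe set lost its call in 5 of the 10 fits that left out an array, with adjusted p up to 0.124 without 12 h replicate 4, and with only the 12 h and 0 h arrays in the fit 3 of the 5 were called.

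HPGD fell at 24 h against 12 h by 1.63 ± 0.40 on the log2 scale (SE, 95% confidence interval -2.48 to -0.79, adjusted p = 0.0182 in limma). All 5 HPGD probe sets were called lower, with changes of -2.55 to -1.63, beside 3.2% of all probe sets. On the brightest the highest 24 h follicle was at 8.28 and the lowest 12 h follicle at 8.45. The highest of the 5 adjusted p was 0.049996, so the dimmest probe set lay at the threshold. With only the 12 h and 24 h arrays in the fit 0 of the 5 passed (lowest adjusted p = 0.0952 in limma). Without 12 h replicate 4, and likewise without 24 h replicate 2, 2 of the 5 were called.

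From 24 h to the unruptured 36 h follicles HPGD changed by -0.53 to -0.32 over its probe sets, and 0 of 5 were called (limma, lowest adjusted p = 0.895). In that comparison 0.00379% of all probe sets were called, 2 of 52766, while 3298 had an unadjusted p under 0.05 and none of these were member probe sets. On the brightest probe set the interval of the difference was -1.20 to 0.49.

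At 36 h, HPGD averaged 8.04 ± 0.63 in the ruptured follicles and 6.36 ± 0.15 in the unruptured ones on its second probe set (log2 intensity, SD, n = 4 each), a change of 1.67 ± 0.47 (SE, adjusted p = 0.0275 in limma). The third and the fourth probe set were also called higher, with changes of 1.50 (adjusted p = 0.0253) and 1.34 (adjusted p = 0.0451). The brightest changed by 1.19 ± 0.40 (SE, 95% confidence interval 0.34 to 2.03, adjusted p = 0.0708) and the dimmest by 2.37 ± 0.76 (adjusted p = 0.0565), and neither passed. Thus 3 of 5 HPGD probe sets were called, beside 4.83% of all probe sets called higher. On the brightest the groups overlapped through ruptured replicate 6.

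The count for ruptured against unruptured follicles turned on single arrays. Without ruptured replicate 6 all 5 HPGD probe sets were called, with 1.57 ± 0.38 on the brightest (adjusted p = 0.0148 in limma). Without ruptured replicate 5, 7 or 8, or without unruptured replicate 4, 0 were called. Without unruptured replicate 1 or 2 the count was 1, without unruptured replicate 3 it was 2, and with only the 2 groups in the fit it was 1.

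Ordered by group mean, HPGD was highest at 12 h, then in ruptured 36 h, 0 h, 24 h and unruptured 36 h follicles, and this order was the same on all 5 probe sets. No neighbours in the order passed the test. Between 12 h and the ruptured follicles, ruptured minus 12 h was -1.03 to -0.64 over the probe sets (adjusted p = 0.237 to 0.762 in limma, beside 1.6% of all probe sets called). Between ruptured follicles and 0 h it was 0.82 to 1.74, with 0 of 5 HPGD probe sets called (adjusted p = 0.0607 to 0.155), beside 7.01% of all probe sets called higher. Without ruptured replicate 6, 3 of the 5 were called.

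Farther apart in that order, unruptured 36 h follicles were called lower than 12 h follicles on all 5 HPGD probe sets. The changes were -3.04 to -1.98, the largest on the dimmest probe set, beside 4.85% of all probe sets called lower. Ruptured minus 24 h was 0.83 to 1.88, with 0 of 5 called, beside 9.31% of all probe sets. At 24 h against 0 h the HPGD changes were -0.14 to -0.01 with 0 of 5 called, beside 3.36% of all probe sets. In the unruptured 36 h follicles against 0 h they were -0.63 to -0.37 with 0 of 5 called, beside 4.72%.

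The 5 HPGD probe sets varied together. Their pairwise correlations over the 22 arrays were 0.885 to 0.984, and 0.713 to 0.964 after each group's mean was taken off, which describes arrays that share RNA and normalization. All 5 are annotated to the same gene, so counts out of 5 are repeat readings of 1 gene and not independent results. Ruptured replicate 6 was the lowest ruptured follicle on all 5, 12 h replicate 4 the highest 12 h follicle on all 5, and 0 h replicate 4 the lowest 0 h follicle on all 5.

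**Figure D2:**
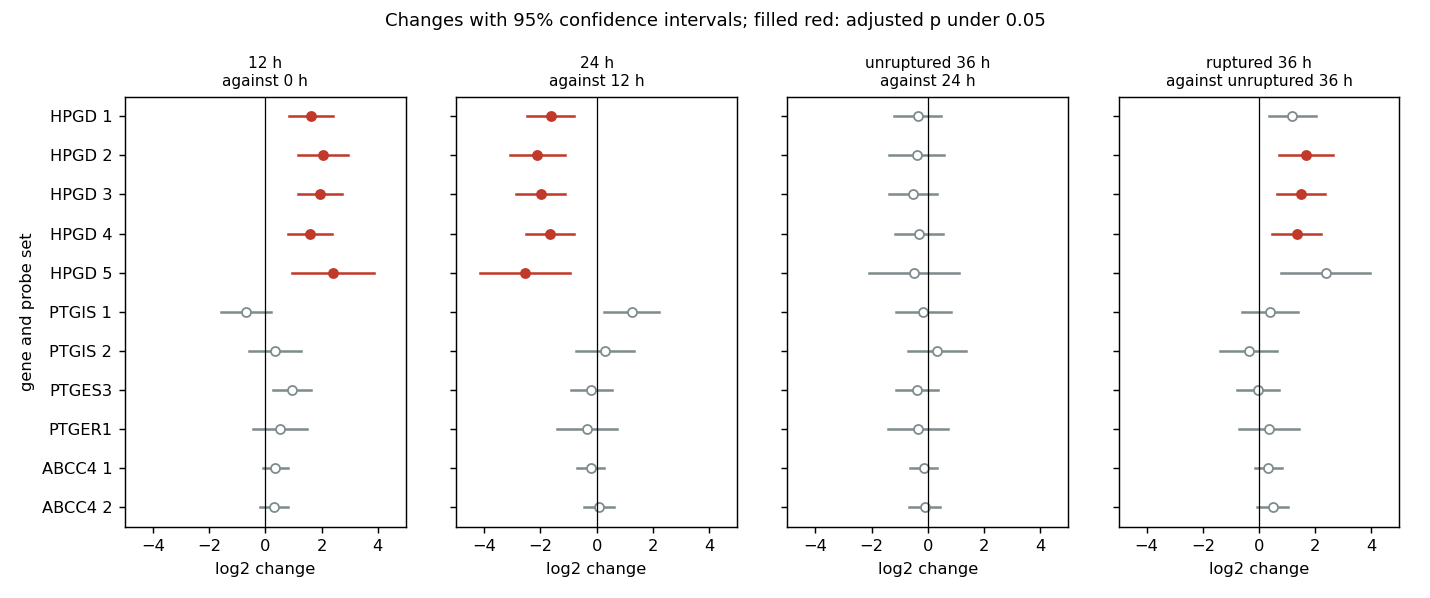
Log2 changes of the 11 member probe sets (horizontal axis) with 95% confidence intervals in the 4 successive comparisons, the later or ruptured group over the earlier or unruptured one. Filled red points had an adjusted p under 0.05. In these comparisons only HPGD probe sets are filled, 5 at 12 h against 0 h, 5 at 24 h against 12 h and 3 in ruptured against unruptured follicles.

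ABCC4 exports prostaglandins and cyclic nucleotides from cells. On its brighter probe set it had 5.63, 5.00, 5.36 and 5.32 in ruptured and 4.33, 5.30, 5.21 and 5.17 in unruptured 36 h follicles (log2 intensity). These overlapped, and the change was 0.33 ± 0.23 (SE, 95% confidence interval -0.15 to 0.81, adjusted p = 0.452 in limma). At 12 h the 4 follicles lay between 5.17 and 5.53, against 4.52 to 5.39 in the 0 h follicles, a change of 0.36 (adjusted p = 0.351 in limma). The order of its means was 12 h, ruptured, 24 h, unruptured and 0 h, and no neighbours in it passed the test.

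The dimmer ABCC4 probe set gave the only call of any member other than HPGD in the 10 pairs of groups. It had 5.03, 4.58, 4.97 and 5.38 in ruptured 36 h follicles, against a lowest of 3.86, a median of 4.09 and a highest of 4.98 in 0 h follicles. The groups overlapped through 0 h replicate 3, the highest 0 h follicle, and ruptured replicates 6 and 7. The change was 0.76 ± 0.24 (SE, adjusted p = 0.0343 in limma), beside 7.01% of all probe sets called higher. The brighter probe set changed by 0.33 in the same comparison (adjusted p = 0.343). Both ABCC4 probe sets correlated at only 0.217 over the 22 arrays, and the call was lost in 7 of the 10 fits that left out an array, with adjusted p from 0.00882 to 0.121.

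PTGIS makes prostacyclin, a vasodilator. Its brighter probe set had 4.49, 4.15, 4.38 and 4.61 at 24 h, against 2.58, 1.82, 3.90 and 4.35 at 12 h (log2 intensity). The 12 h follicles were split, with replicates 1 and 2 low and replicates 3 and 4 near the 24 h values, so the groups overlapped. The change was 1.25 ± 0.47 (SE, 95% confidence interval 0.26 to 2.23, adjusted p = 0.13 in limma) and did not pass. Without 12 h replicate 4 it was 1.64 (adjusted p = 0.0478).

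At 36 h PTGIS had 5.18, 4.87, 4.18 and 4.37 in ruptured follicles and 4.13, 4.81, 4.62 and 3.46 in unruptured follicles on the same probe set. These overlapped (change 0.39, adjusted p = 0.7 in limma). Ruptured minus 12 h was 1.49 ± 0.47 (SE, adjusted p = 0.122), and 1.88 without 12 h replicate 4 (adjusted p = 0.0472). The order of PTGIS group means was ruptured, 24 h, unruptured, 0 h and 12 h, and no neighbours in it passed the test. On the dimmer probe set it was unruptured, 24 h, ruptured, 12 h and 0 h. The probe sets of PTGIS correlated at 0.358 over the 22 arrays, and both lay under the arrays' median log2 intensity of 4.73, where sizes of change are uncertain.

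PTGES3, also called p23, stabilises client proteins on HSP90 and can isomerise prostaglandin H to prostaglandin E. Its probe set had 5.33, 4.99, 5.94 and 4.71 in 12 h follicles, against a lowest of 3.26, a median of 4.46 and a highest of 4.73 in 0 h follicles. Of the 12 h follicles 3 lay above all 0 h follicles, and replicate 4 lay just inside their range. The change was 0.95 ± 0.32 (SE, 95% confidence interval 0.27 to 1.63), with an unadjusted p of 0.00893 and an adjusted p of 0.0767 in limma, which did not pass. With dim probe sets left out before adjustment it passed (adjusted p = 0.0307).

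In later follicles PTGES3 had 5.36, 4.68, 4.61 and 5.58 at 24 h, which overlapped the 12 h values (change -0.18, adjusted p = 0.847 in limma). It had 4.27, 4.73, 4.02 and 5.54 in ruptured and 4.84, 4.69, 4.35 and 4.82 in unruptured 36 h follicles. Ruptured replicate 8 stood well above the other ruptured follicles, and the groups overlapped (change -0.03, adjusted p = 0.974). The order of its means was 12 h, 24 h, unruptured, ruptured and 0 h, with no neighbours that passed the test.

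PTGER1 couples prostaglandin E to calcium signalling. Its probe set had 4.88, 4.66, 4.95 and 4.38 at 12 h, against a lowest of 2.27, a median of 4.50 and a highest of 4.78 at 0 h. Apart from 0 h replicate 3, and unruptured replicate 2 at 2.45, all 22 arrays lay between 3.93 and 5.06. No pair of groups passed the test, and the interval for 12 h against 0 h was -0.45 to 1.49. The order of its means was 12 h, ruptured, 24 h, 0 h and unruptured.

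**Figure D3:**
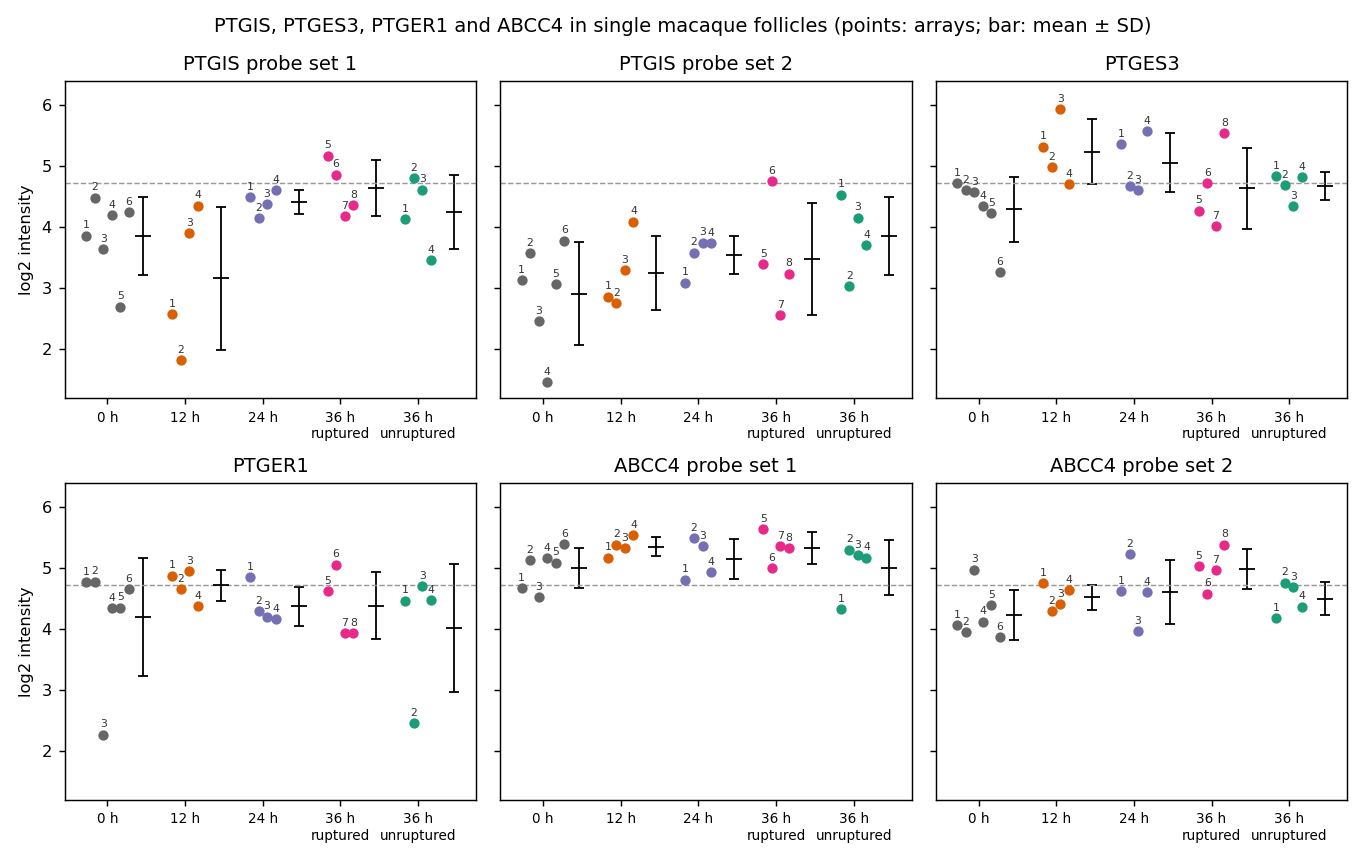
Log2 intensity (vertical axis) of the 6 probe sets of PTGIS, PTGES3, PTGER1 and ABCC4 in each array, by group, with mean ± SD beside the points (n = 6 at 0 h, n = 4 elsewhere). The dashed line marks the median log2 intensity of 4.73. The groups overlap on every probe set for 12 h against 0 h and for ruptured against unruptured follicles, and single low arrays stand out at 0 h and in unruptured follicles for PTGER1.

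Other genes of the pathway were read from lists, each gene by its brightest probe set. Of 8 measured genes of prostaglandin breakdown and transport, HPGD was the only 1 called at 12 h against 0 h, beside 14.3% of all genes, and the list's median change was 0.17 (-0.00368 over all genes). At 24 h against 12 h, HPGD was called lower and CBR3, a carbonyl reductase, higher by 1.98 ± 0.51 (SE, adjusted p = 0.024 in limma), beside 10.9% of all genes. CBR3 varied widely at 12 h, with 2.30 to 5.98 over the 4 follicles, against 6.07 to 6.41 at 24 h. In ruptured against unruptured follicles PTGR3, a reductase of oxidised prostaglandins, fell by 0.54 ± 0.14 on the log2 scale (adjusted p = 0.0175), the only 1 of the 8 called, beside 14.1% of all genes.

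In unruptured 36 h against 12 h follicles HPGD and SLCO3A1, an organic anion carrier that takes up prostaglandins, were lower and CBR3 was higher, so 3 of the 8 were called, beside 15.1% of all genes. SLCO3A1 averaged 4.31 ± 0.21 in the unruptured follicles and 5.40 ± 0.29 in the 12 h follicles (log2 intensity, SD, n = 4 each). Against 0 h none of the 8 was called at 24 h, in unruptured or in ruptured follicles, beside 5.49%, 7.18% and 21.3% of all genes. In unruptured 36 h against 24 h follicles none of the 8 was called, beside 0.00708% of all genes.

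Among 12 measured genes of prostaglandin synthesis, PLA2G6, a calcium-independent phospholipase, was the only 1 called at 12 h against 0 h, with a change of -0.97 ± 0.27 (SE, adjusted p = 0.0301 in limma), beside 14.3% of all genes called. In unruptured 36 h against 12 h follicles PLA2G6 and the secreted phospholipase PLA2G12A were higher and the thromboxane synthase TBXAS1 lower, beside 15.1% of all genes called. None of the 12 was called in ruptured against unruptured follicles, beside 14.1% of all genes. Of 6 measured receptors and partners, PTGFRN, a partner of the prostaglandin F receptor, fell at 12 h against 0 h by 1.25 ± 0.15 on the log2 scale (adjusted p = 5.47e-05) and was lower in every later group than at 0 h. It was the only 1 of the 6 called at 12 h, beside 14.3% of all genes. The prostacyclin receptor PTGIR was higher at 24 h than at 0 h by 1.49 (adjusted p = 0.0489), beside 5.49% of all genes called. PTGIR averaged 3.13 at 0 h and 4.62 at 24 h, under the arrays' median of 4.73, where sizes of change are uncertain.

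Of 17 measured enzymes and receptors of other eicosanoids, 5 were lower in ruptured than in unruptured follicles and none was higher, beside 1084 lower and 915 higher of all 14132 genes, with a median change of -0.14 over the list (-0.056 over all genes). EPHX2 and EPHX1, which hydrolyse epoxides of arachidonic acid, changed by -1.41 and -1.17, and the leukotriene A hydrolase LTA4H by -0.54. At 12 h against 0 h, EPHX1 and EPHX2 also fell, by 1.23 and 0.99 on the log2 scale, and the oxo-eicosanoid receptor OXER1 rose by 0.94. In that comparison 4 of the 17 were called in either direction, beside 14.3% of all genes. At 24 h against 12 h EPHX1 and the epoxygenase CYP2J2 were higher, by 0.85 and 0.59, beside 10.9% of all genes called.

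Of 9 measured transporters of the ABCC family, to which ABCC4 belongs, ABCC3 was higher at 12 h than at 0 h by 1.61 ± 0.24 (SE, adjusted p = 0.000413 in limma). ABCC1, a pump for glutathione conjugates such as leukotriene C, was higher in ruptured than in unruptured follicles by 1.13 ± 0.20 (adjusted p = 0.00126). Each was the only 1 of the 9 called in its comparison, beside 14.3% and 14.1% of all genes, and ABCC4 itself was called in neither.

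Of 14 measured genes of HSP90 and its cochaperones, the complex in which PTGES3 works, 7 were lower at 24 h than at 12 h, beside 709 of all 14132 genes, and 6 were higher in ruptured than in unruptured follicles, beside 915. At 24 h against 12 h DNAJA1, CHORDC1 and FKBP4 changed by -1.23, -1.18 and -1.03, and in ruptured against unruptured follicles CHORDC1, STIP1 and DNAJA1 by 1.02, 0.91 and 0.82. At 12 h against 0 h STIP1 and HSP90B1 were higher and ST13 lower, 3 of the 14, beside 14.3% of all genes. PTGES3 was called in none of these comparisons.

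**Figure D4:**
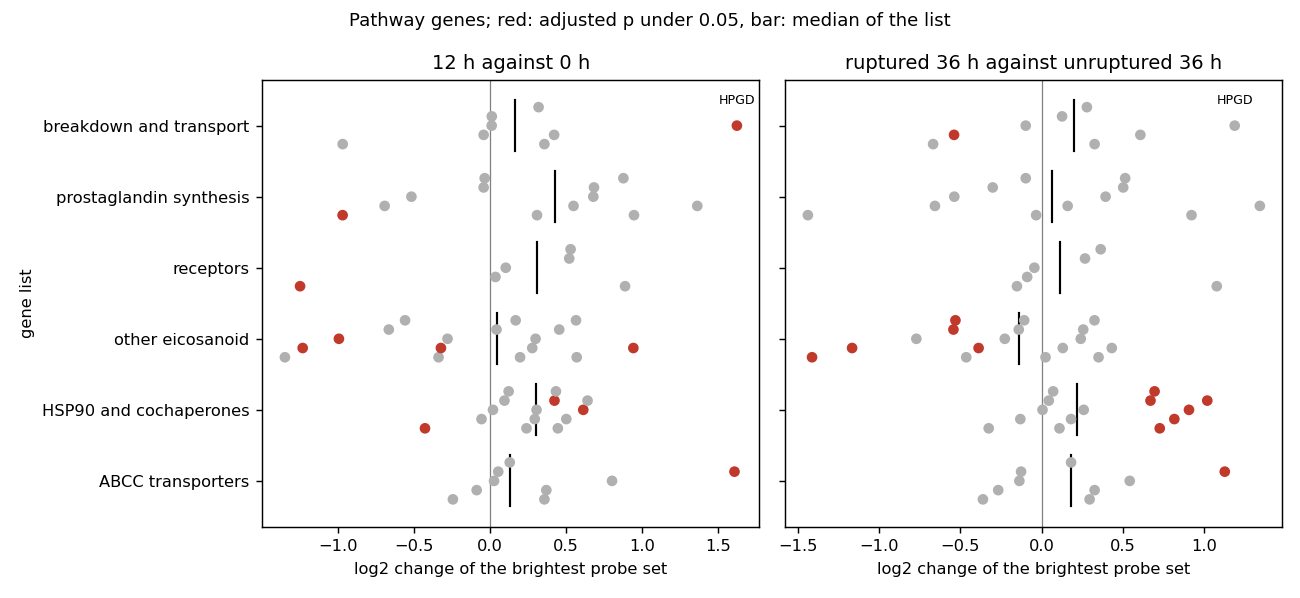
Log2 change of each measured gene of the 6 pathway lists (horizontal axis) at 12 h against 0 h and in ruptured against unruptured 36 h follicles. Red points had an adjusted p under 0.05 and black bars mark list medians. HPGD is the only red point of breakdown and transport at 12 h, and the red points among HSP90 cochaperones at rupture are all above 0.

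The genes whose brightest probe sets followed each member most closely were ranked by Pearson correlation over the 22 arrays, which share groups and normalization, among 9091 named genes of at least median intensity (9092 for PTGIS and PTGER1). For HPGD these were SLC2A1, a glucose transporter, at 0.858, then CSNK1A1, CDS1, GCLM and DERL2, down to 0.839. With group means taken off, HPGD and SLC2A1 correlated at 0.626. SLC2A1 averaged 6.76 at 12 h, 5.50 at 24 h, 6.50 in ruptured and 5.32 in unruptured follicles, against 5.78 at 0 h, which is the order of HPGD. These genes were picked for their correlation over the same arrays, so a like order follows largely from the choice. CDS1 also had that order, while CSNK1A1, GCLM and DERL2 averaged higher at 24 h than at 0 h. By rank correlation none of the same 5 genes came among the 5 closest to HPGD.

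For PTGES3 the 5 closest were AIF1 at 0.824, PTAFR, CD4, CYBB and DOCK2, down to 0.804. AIF1, CD4 and CYBB are known from macrophages and other leukocytes, and AIF1 is also on the macrophage marker list used here. PTGES3 correlated with the mean of 9 measured macrophage and monocyte markers at 0.845 over the 22 arrays, and at 0.750 with group means taken off. With the mean of the 14 HSP90 genes it correlated at 0.174, and at 0.0231 with group means taken off. Both list comparisons were chosen after the values were seen. Whether this single probe set reads only PTGES3 could not be examined, since no sequences were available.

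For PTGIS the closest were FAM234A at 0.775, GNA13, ACSF2, SRGAP1 and PDIA5, down to 0.675. For PTGER1 they were COLEC12 at 0.686, ARAP3, MS4A7, AASS and PPM1F, down to 0.656. For ABCC4 they were RPS6KC1 at 0.738, INTS15, ENY2, FBXO30 and AVEN, down to 0.688. Of each of these sets, 1 gene for PTGIS, 1 for PTGES3, 1 for PTGER1 and 3 for ABCC4 stayed among the closest 5 by rank correlation.

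**Figure D5:**
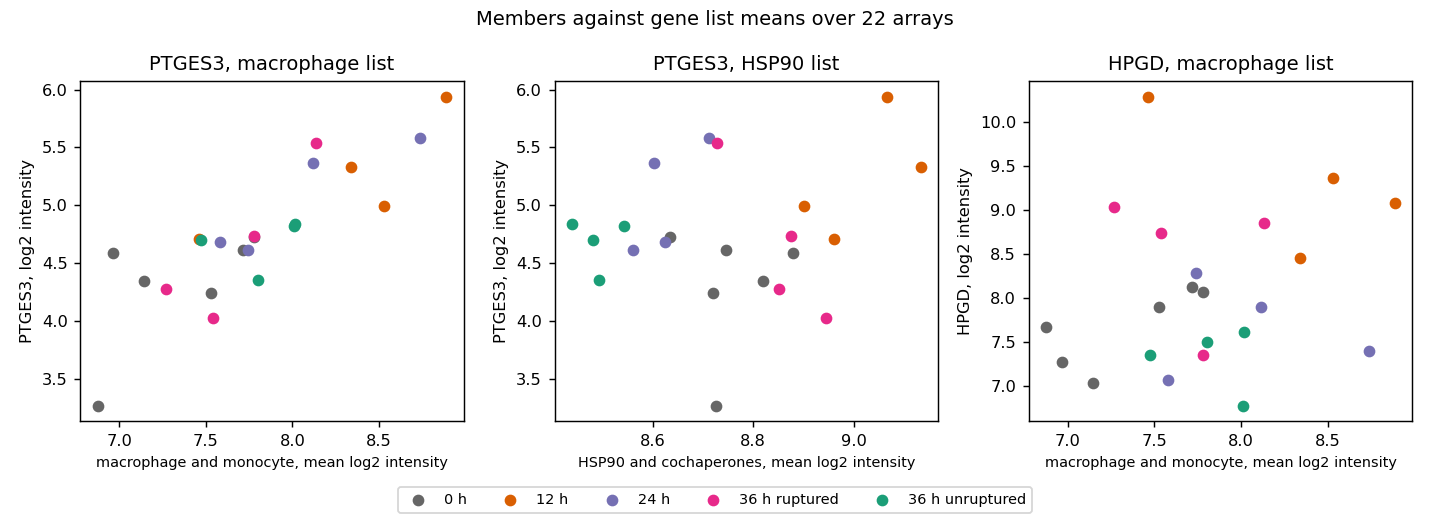
Each point is 1 of 22 arrays, coloured by group. The horizontal axes give the mean log2 intensity of 9 macrophage and monocyte markers or of 14 HSP90 and cochaperone genes, the vertical axes the log2 intensity of PTGES3 or of the brightest HPGD probe set. PTGES3 correlates with the macrophage mean at 0.845 and with the HSP90 mean at 0.174, and the 12 h array with the highest HPGD has the lowest macrophage mean of the 12 h arrays.

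Markers of cell types were also compared between 12 h and 0 h. Of 7 theca and stroma markers CYP17A1 and OGN were lower at 12 h than at 0 h. The rest of that list changed by -0.11 (COL1A1) to 0.32 (LUM) and was not called. FCN1 was the only 1 called, higher, among 5 neutrophil markers, where the rest changed by -0.81 (CSF3R) to 1.61 (S100A8). TAGLN was the only 1 called, higher, among 5 smooth muscle markers. No endothelial or oocyte marker was called, and in that comparison 14.3% of all genes were called. Of 9 measured macrophage and monocyte markers 4 were higher at 12 h than at 0 h and none was lower, namely TYROBP, AIF1, LYZ and CD14, with a list mean of 7.46 to 8.89 at 12 h against 6.88 to 7.78 at 0 h (log2 intensity), beside 919 of all 14132 genes called higher. Of 7 granulosa markers, INHBB and HSD17B1 were lower at 12 h and none was higher, with a list mean of 7.44 to 8.34 at 12 h against 8.79 to 9.89 at 0 h, beside 1102 of all genes called lower. Of 6 epithelium markers only CDH1 was called, lower at 12 h, with a list mean of 5.02 to 5.27 at 12 h against 5.33 to 6.37 at 0 h. On that list only KRT8 rose, by 1.28, and it was not called. Neither the granulosa nor the epithelium list mean overlapped between 12 h and 0 h. The same held for ABCC transporters (5.68 to 5.79 at 12 h, 5.27 to 5.55 at 0 h). It also held for HSP90 and its cochaperones (8.90 to 9.13 at 12 h, 8.63 to 8.88 at 0 h). The granulosa and epithelium lists both include very dim probe sets. At 12 h INHBB averaged 0.50 and CDH1 -0.08, far under the median of 4.73. There sizes of change are uncertain. The part of these 2 lists in the HPGD change was not tested. Replicate 4, the 12 h follicle with the highest HPGD, had the lowest macrophage mean of the 12 h follicles at 7.46, inside the 0 h range. It also had their highest granulosa mean, at 8.34. HPGD correlated with the macrophage mean at 0.227 over the 22 arrays and at -0.153 with group means taken off. With the granulosa mean these values were 0.0115 and 0.384. Over the 8 marker lists the correlation with group means taken off ran from -0.265 (theca and stroma) to 0.384 (granulosa). The part of macrophage content in the PTGES3 values was not tested.

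Signs of RNA quality also differed somewhat. The difference between the 3' and 5' control probe sets averaged 0.391 ± 0.079 at 12 h against 0.328 ± 0.041 at 0 h (log2, SD, n = 4 and 6), with 0.506 in 12 h replicate 3 and at most 0.393 in any other array. With this measure as a covariate, HPGD on its brightest probe set changed at 24 h against 12 h by -1.45 ± 0.47 (SE, adjusted p = 0.0946 in limma), and 2 of 5 probe sets were called. At 12 h against 0 h, 4 of 5 were called with it, and in ruptured against unruptured follicles 2 of 5, since the fourth probe set no longer passed (adjusted p = 0.0521).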

How the data were processed

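Each array's deposited file gives an intensity for 52865 probe sets, summarised with RMA per the submitters' processing notes (version not given in the sources used here). Since the deposited intensities span 0.0361 to 15137, they were read as linear and converted to log2 before any test. The labels give neither scan dates nor batches, and a batch effect was therefore not testable. Precision is limited by the number of arrays. Per the labels' protocols, Trizol and columns yielded the RNA, of which 2 µg was labelled. The labels do not tie arrays to animals, and the p-values then describe only the variation among these follicles, which may be technical in part.

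After removal of 99 controls, 52766 probe sets were tested. In the platform's annotation 24956 of them carried 1 symbol, 361 several and 27449 none. Means of the 5 groups were fitted with limma 3.58.1 (lmFit, eBayes) in R 4.3.3 over all 22 arrays, with two-sided contrasts for the 10 pairs and an F test, Benjamini-Hochberg adjusted over all tested probe sets and called under 0.05. The fit was tested on simulated data. Groups and replicate numbers follow the titles.

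The members and the gene lists were chosen with earlier results of these data known. All member probe sets are named. Of each pathway list (157 genes in 14 lists, marker lists included) up to 3 called genes with the largest change per comparison could be named, and for each member the 5 genes most alike by Pearson correlation. Alternatives were an offset of 16 before log2, quantile or median normalization, dim probe sets left out, only the compared groups, array weights, a trended and robust prior, a control-transcript covariate, a replicate block, and each array left out in turn.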

Additional observations from a re-analysis of the deposited data

Results flagged for a closer look

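In 55 groups of 4 or 6 arrays, 5 for each of the 11 member probe sets, 7 groups held an array that stood apart from the rest by Dixon's test, and all 7 were the lowest of their group. Chance flags about 1 in 20 groups, and the HPGD probe sets are not independent of each other.

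Ruptured replicate 6 stood apart on HPGD, at 7.35 on the brightest probe set, where the nearest ruptured follicle was at 8.74, and at 5.09 on the dimmest, with the nearest at 6.42. The 0 h replicate 4 had 1.83 on the dimmest HPGD probe set, with the nearest 0 h follicle at 4.39. PTGES3 was at 3.26 in 0 h replicate 6, with the nearest at 4.24. PTGER1 was at 2.27 in 0 h replicate 3 and at 2.45 in unruptured replicate 2, with the nearest values at 4.35 and 4.47. The brighter ABCC4 probe set was at 4.33 in unruptured replicate 1, with the nearest at 5.17. Of these arrays, ruptured replicate 6 and 0 h replicate 4 each stood apart on HPGD only, and the cause was not tested.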

How the results depend on the processing

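Replicate numbers did not pair the arrays. Over 26 same-numbered pairs the correlation of deviations from group means ran from -0.179 to 0.173, with 1 pair over 0.1, and 0 of 20 arrays correlated best with its own number. With a replicate block (10 residual degrees of freedom, against 17) the member probe sets called, of 11, were 2 at 12 h against 0 h, 1 at 24 h against 12 h, 0 in ruptured follicles against 0 h and 2 in the F test, and 2418, 2021 and 4285 of all probe sets were called at 12 h against 0 h, at 24 h against 12 h and in the F test. The block was not run for ruptured against 12 h, 24 h or unruptured follicles, since the ruptured follicles share no replicate numbers with those groups. With only the compared groups in the fit, member probe sets called were 3 at 12 h against 0 h, 0 at 24 h against 12 h, 1 in ruptured against unruptured follicles, 0 in ruptured follicles against 0 h and 2 in unruptured follicles against 12 h, and all probe sets called in the first 3 of these were 2740, 189 and 1318 (4922, 3628 and 5181 with all groups). In ruptured against unruptured follicles 5 probe sets, all of HPGD, were called with 16 added before log2, with dim probe sets left out or with a trended robust prior. In ruptured follicles against 0 h these gave 3, 3 and 2, and array weights gave 0. Adding 16 or leaving out dim probe sets gave 1 call in ruptured follicles against 24 h. The control-transcript covariate left 2 calls, and 2195 of all probe sets, at 24 h against 12 h, and 2 calls in ruptured against unruptured follicles, where the fourth HPGD probe set did not pass (adjusted p = 0.0521). Array weights ended the call of the dimmest HPGD probe set at 24 h against 12 h (adjusted p = 0.0593). Leaving out 1 array gave 4 to 5 member probe sets, all of HPGD, called at 12 h against 0 h, 2 to 5 at 24 h against 12 h (PTGIS among them without 12 h replicate 4), 0 to 5 in ruptured against unruptured follicles, and in ruptured follicles 0 to 4 against 0 h, 0 to 1 against 12 h and 0 to 1 against 24 h. Quantile normalization and median centring moved no member count, and no called change turned its sign under any alternative run. The cause of these differences was not tested. The mean levels of PTGIS, PTGER1 and the dimmer ABCC4 probe set lay under the arrays' median log2 intensity of 4.73 and that of PTGES3 at 4.74, where sizes of change are uncertain. The same limit holds for the dimmest HPGD probe set, with means of 4.44 at 0 h, 4.30 at 24 h and 3.81 in unruptured follicles. Its change in ruptured against unruptured follicles was 2.37, and 1.49 with 16 added before log2.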

Other observations

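HPGD was lower at 24 h than at 12 h on 5 of 5 probe sets, beside 3.2% of all probe sets, and so were 7 of 14 measured genes of HSP90 and its cochaperones, beside 709 of 14132 genes. The correlation of HPGD with that list had opposite signs over all arrays and within groups. Across the 22 arrays HPGD correlated with the mean of 14 HSP90 and cochaperone genes at 0.557, and with group means taken off at -0.600. PTGER1 correlated with the mean of 9 endothelial markers at 0.421 over all arrays and at 0.699 with group means taken off. All these correlations describe arrays that share normalization, and the lists were picked for mention after the values were seen.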
